A study of Mus musculus with 3 samples.

Results

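The genes described here encode the ubiquitin-conjugating (E2) enzymes and the USP deubiquitinases, followed in RAW264.7 cells through 12 h of lipopolysaccharide (LPS). A gene was included when its symbol in the platform annotation began with Ube2, or with Usp and a digit, and when at least 1 probe set was assigned to it alone. Usp18, Ube2l6 and Ube2c were left out by that rule. It gave 63 of the 12393 named genes on the arrays, 25 of them E2 genes and 38 USP genes, read by 115 probe sets.

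RAW264.7 is a mouse macrophage line, transformed by Abelson virus, and LPS is the bacterial cell wall component sensed by Toll-like receptor 4. The 3 samples were RAW264.7 cells at 0, 2 and 12 h of LPS, with 1 array at each time. All 3 come from this one line, and no untreated culture at 2 or 12 h was in the design, so LPS and time in culture cannot be told apart. With no replicate, no test between times was possible and the number of arrays limits the precision.

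Ubiquitin is attached to proteins in a relay. An E1 enzyme activates it, an E2 enzyme carries it as a thioester on a cysteine, and an E3 ligase directs it to the substrate, with the E2 often deciding which kind of chain is built. USP enzymes are cysteine proteases that remove ubiquitin again. In macrophages the Toll-like receptor pathway uses both sides of this cycle: Ube2n with Ube2v1 builds the chains with which TRAF6 activates the TAK1 and IKK kinases, E2 enzymes of the Ube2d family serve the ligase that marks IkB for the proteasome, and several deubiquitinases trim the same chains.

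Signals are the deposited linear probe set intensities, rescaled to one trimmed mean by at most 0.16%. Signals under 34.96, the 40th percentile of all values, were set to that floor before log2 differences were taken, and each gene was read by its probe set of highest mean log2 signal. A gene counts as higher or lower when 2 arrays differ at least 2-fold. The only error these arrays hold is that between probe sets of one gene, whose log2 differences had an SD of 0.32 between 2 h and 0 h, of 0.34 between 12 h and 0 h, and of 0.31 between the LPS arrays. Over the E2 and USP genes alone this SD was 0.26, 0.42 and 0.30. It leaves out the error between cultures.

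The arrays carried the marks of the labelled cells and treatment. All 10 macrophage markers examined, among them Cd68, Csf1r and Lyz2, were above the floor at every time, with summed signals between 21924 and 23088. Single markers differed more than that sum. At 12 h against 0 h, 2 were at least 2-fold higher, Adgre1 (2.12-fold) and Itgam (2.27-fold), and 0 were 2-fold lower. None of the 5 T cell markers on the arrays was above the floor at any time, and 1 each of 4 B cell, 4 epithelial, 5 fibroblast and 4 endothelial markers was. Tnf, the gene of tumour necrosis factor, had signals of 184, 3346 and 1343 at 0, 2 and 12 h.

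Most E2 and USP genes were above the floor, the E2 genes more often than the USP genes. All but 1 of the 25 E2 genes were at or above the floor on all 3 arrays (96%), as were 28 of the 38 USP genes (73.7%), against 59% of all named genes. The exception among E2 genes was Ube2d2b, a close relative of Ube2d2a, with signals of 5.69, 5.20 and 3.61 at 0, 2 and 12 h. Usp26, Usp27x, Usp29, Usp38, Usp42, Usp53 and Usp9y were also under the floor on all arrays, so no difference is given for them. Usp38 came nearest to it, at 34.3, 33.0 and 31.6. Usp13, Usp17la and Usp43 were above the floor on some arrays only, and their differences are bounds.

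At 2 h of LPS, none of the 53 measured E2 and USP genes was at least 2-fold higher than at 0 h, where 2.09% of 8422 measured genes were. A single one, Usp2, was at least 2-fold lower, where the background was 1.69%. At 12 h none of 55 was higher and Usp2 was again the only one lower, against a background of 3.01% higher and 2.4% lower among 8629 genes. Between 12 h and 2 h none of 54 was 2-fold apart by its reported probe set, against 2.65% higher and 1.98% lower among 8467 genes. These shares are all close to or below the background, and with counts of 0 or 1 they say little about the set as such. They were also set in part by the rule, whose 3 excluded genes were chosen with earlier results of these data known. Of these, Usp18 was 5.39-fold higher and Ube2c 2.29-fold lower at 12 h than at 0 h. Against 2 h, Usp18 was 8.09-fold and Ube2l6 at least 2.56-fold higher at 12 h. The values at 2 h and 12 h are both set against the same 0 h array.

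Usp2 encodes a deubiquitinase that stabilises cyclin D1 and whose transcript follows the circadian clock in many tissues. Its signals were 261, 88.8 and 89.1 at 0, 2 and 12 h. The gene was 2.94-fold lower at 2 h than at 0 h and 2.93-fold lower at 12 h. The 2 LPS arrays were at nearly the same level, with a log2 difference of 0.0049 between 12 h and 2 h. A second probe set for Usp2 read 96.8, 35.8 and 39.2, or 2.71-fold lower at 2 h and 2.47-fold lower at 12 h, its LPS values lying just above the floor. Both probe sets were thus highest on the untreated array. In bulk RNA, fewer cells expressing a gene and less of its RNA per cell cannot be told apart.

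**Figure D1:**
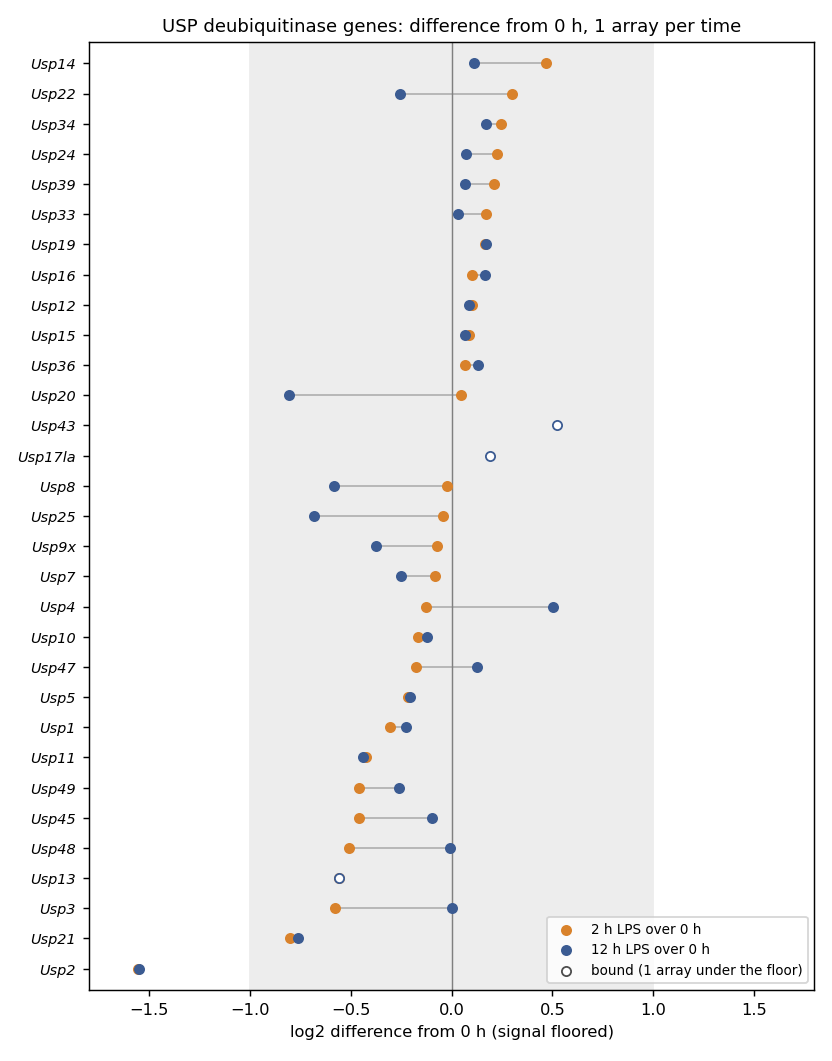
Log2 difference from 0 h of the 31 USP genes measured at 2 h or 12 h of LPS, sorted by the 2 h value, with orange points for 2 h and blue points for 12 h, and open points for bounds (for Usp13 both times coincide). The shaded band spans differences under 2-fold in either direction, and Usp2, at -1.56 and -1.55, is the only gene outside it.

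Next in size among the USP genes at 2 h was Usp21, which encodes a deubiquitinase of histone H2A and, in human cells, of the TNF receptor kinase RIPK1. Its single probe set read 157, 90.2 and 92.8 at 0, 2 and 12 h. That made it 1.74-fold lower at 2 h and 1.69-fold lower at 12 h, short of 2-fold, with the LPS arrays again close together. On the E2 side the nearest to this pattern was Ube2t, the E2 that mono-ubiquitinates FANCD2 in the Fanconi anaemia pathway of crosslink repair. It had signals of 161, 103 and 99.9 at 0, 2 and 12 h, and was 1.57-fold lower at 2 h and 1.62-fold lower at 12 h.

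By the reported probe sets, the largest increases at 2 h were in the E2 genes Ube2f and Ube2d3. The rank of Ube2d3 rests on that choice of probe set: its log2 difference at 2 h was 0.76 by the reported one, 0.25 as the median over its probe sets and 0.17 without suffixed probe sets, both below the 0.50 of Ube2s and the 0.48 of Ube2d1 by their reported probe sets. Ube2f encodes one of the E2 enzymes for the ubiquitin-like protein NEDD8 and works with cullin 5 ligases. Its signals were 370, 629 and 434 at 0, 2 and 12 h, which is 1.70-fold higher at 2 h and 1.17-fold higher at 12 h than at 0 h. At 12 h against 0 h, 3 of its 4 probe sets were higher and 1 was lower, with log2 differences from -0.01 to 0.41. All 4 of its probe sets were higher at 2 h, by 1.52 to 1.82-fold, and all 4 were lower at 12 h than at 2 h, by 1.37 to 1.54-fold. The signal of Ube2f was therefore highest on the 2 h array by every probe set. All 4 carry a suffix for probes shared between transcripts or genes, so whether related transcripts contribute was not tested.

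Ube2d3 encodes a member of an E2 family that serves a wide range of E3 ligases. Its brightest probe set read 1846, 3135 and 2779 at 0, 2 and 12 h, or 1.70-fold higher at 2 h and 1.505-fold higher at 12 h. The 7 probe sets of the gene did not show one course. At 2 h 6 were higher than at 0 h and 1 was lower, with log2 differences from -0.17 to 0.76. At 12 h 3 were higher and 4 were lower, with log2 differences from -0.67 to 0.59. Against 2 h, all 7 were lower at 12 h, from -0.88 to -0.09. The direction of Ube2d3 at 12 h against 0 h is therefore uncertain.

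**Figure D2:**
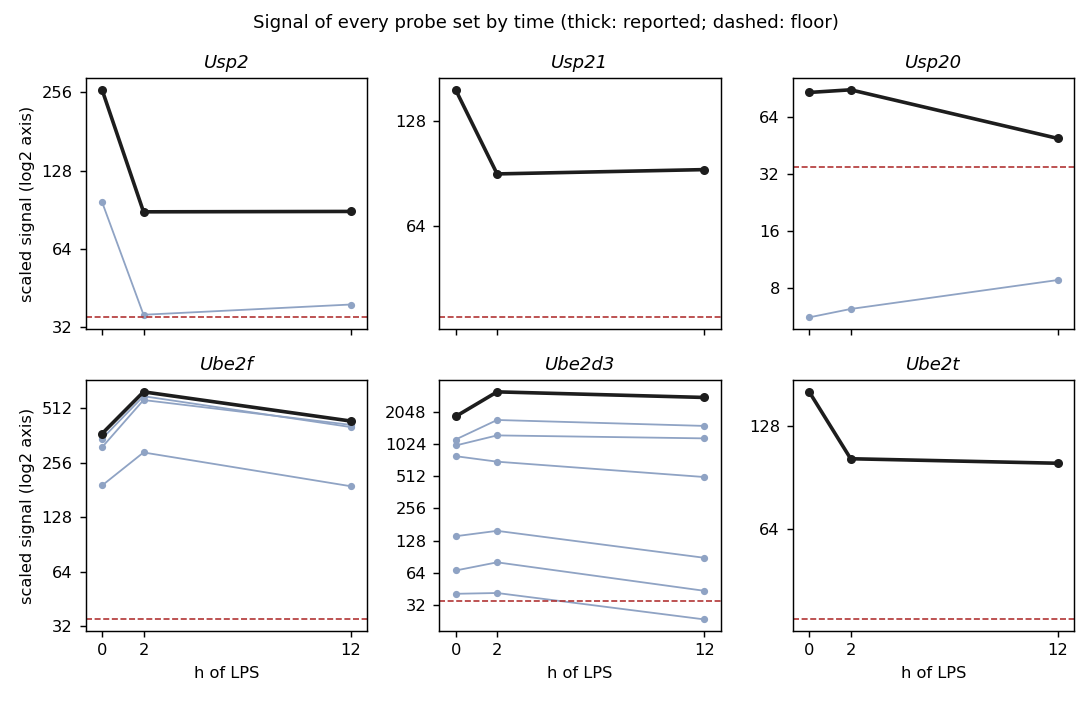
Scaled signal on a log2 axis at 0, 2 and 12 h of LPS for every probe set of 6 genes, with the reported probe set as a thick black line, other probe sets in blue and the floor of 34.96 dashed. Both Usp2 probe sets fall at 2 h and all 4 Ube2f probe sets are highest there. The 7 for Ube2d3 differ in sign from 0 h at 2 h (1 lower) and more so at 12 h (4 lower).

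The promoter sequences of these 4 genes are shown because, by their reported probe sets, they have the 2 largest increases and the 2 largest decreases at 2 h. The windows are the 250 bases before the annotated start, from RefSeq on build GRCm38.p6, read on the strand of the gene, with the most upstream start where several were listed (4 for Ube2d3 and 2 for Ube2f). Capitals mark matches, on either strand, to the NF-kB consensus, the E-box CACGTG, the cyclic AMP response element TGACGTCA and the GC box GGGCGG. No matches overlapped in the windows printed.
Usp2, chr9:44084670-44084919, plus strand: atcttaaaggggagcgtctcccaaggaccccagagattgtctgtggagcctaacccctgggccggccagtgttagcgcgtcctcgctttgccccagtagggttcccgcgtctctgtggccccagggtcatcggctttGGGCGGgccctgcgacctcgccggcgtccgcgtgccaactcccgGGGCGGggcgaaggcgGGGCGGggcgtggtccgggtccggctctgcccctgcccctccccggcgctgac
Usp21, chr1:171287962-171288211, minus strand: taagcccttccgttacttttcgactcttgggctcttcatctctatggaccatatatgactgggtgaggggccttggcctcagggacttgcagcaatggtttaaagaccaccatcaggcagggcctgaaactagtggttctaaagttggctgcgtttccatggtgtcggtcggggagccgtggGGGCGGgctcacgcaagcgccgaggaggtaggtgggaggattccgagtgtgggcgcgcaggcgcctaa
Ube2d3, chr3:135437982-135438231, plus strand: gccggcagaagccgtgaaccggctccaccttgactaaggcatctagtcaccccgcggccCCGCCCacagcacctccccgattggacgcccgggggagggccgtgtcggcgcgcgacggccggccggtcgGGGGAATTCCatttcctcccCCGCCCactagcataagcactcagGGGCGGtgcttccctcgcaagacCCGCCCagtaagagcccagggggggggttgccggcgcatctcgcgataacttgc
Ube2f, chr1:91250054-91250303, plus strand: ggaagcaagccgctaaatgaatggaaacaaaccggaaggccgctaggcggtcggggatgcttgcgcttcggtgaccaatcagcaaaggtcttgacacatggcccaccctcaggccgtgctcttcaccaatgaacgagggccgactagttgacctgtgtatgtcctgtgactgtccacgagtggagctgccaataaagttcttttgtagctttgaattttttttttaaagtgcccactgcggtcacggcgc

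The printed window of Usp2 held 3 GC boxes, beginning 113, 69 and 53 bases before the start, and that of Usp21 held 1. The printed Ube2d3 window held 4 GC boxes and 1 match to the NF-kB consensus, GGGGAATTCC, beginning 121 bases before the start. Of the other Ube2d3 windows, that with 24 CpG pairs also held an NF-kB match, and those with 39 and 18 held none. The printed Ube2f window held none of the 4 motifs, and the window of its other start held 1 GC box. In all, 47 of the 63 genes had an entry, with 55 windows, some of which overlap. A GC box was in 39 of those windows (70.9%), against 51.3% of 12566 windows of the genes on the arrays and 32.7% of all 32851 windows. The median number of CpG pairs was 24 per window, against 13 for the genes on the arrays. An NF-kB match was in 5 of the 55 windows (9.09%), against 8.79% for genes on the arrays and 7.25% for all windows, and besides Ube2d3 they belonged to Ube2r2, Usp13 and Usp27x. E-boxes were in 3 windows (5.45%, against 7.68% of windows of genes on the arrays), and the cyclic AMP response element was in 1 (1.82%, against 2.12%). A match is only a description of the letters.

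As families, both stayed close to 0, and the sign of the USP median at 2 h turned with the scaling of the arrays. The median log2 difference at 2 h was 0.07 for 24 E2 genes and -0.07 for 29 USP genes, beside -0.10 for all measured genes. The quartiles were -0.13 and 0.28 for E2 genes, -0.42 and 0.10 for USP genes, and -0.34 and 0.13 for all genes. Above 0 were 16 of 24 E2 genes and 12 of 29 USP genes, beside 3170 of 8422 genes in all, a share close to that of the USP genes. At 12 h against 0 h the medians were 0.12 for E2 genes, -0.0075 for USP genes and -0.05 for all genes. At 12 h against 2 h they were -0.05, 0.0026 and 0.05. The E2 median exceeded the USP median by 0.14 at 2 h and by 0.13 at 12 h, and was below it by 0.055 between 12 h and 2 h. With quantile normalization the excess at 2 h was 0.051.

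Setting the arrays to one median moved the median of all genes at 2 h by 0.13, to 0.03, and that of USP genes to 0.07. Relative to all genes, the E2 median was 0.17 higher at 2 h and 0.17 higher at 12 h, and the USP median was 0.03 and 0.04 higher. With quantile normalization the E2 value at 2 h was 0.083. The USP values also took the other sign under some alternatives, down to -0.0073 at 2 h and -0.11 at 12 h without suffixed probe sets.

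**Figure D3:**
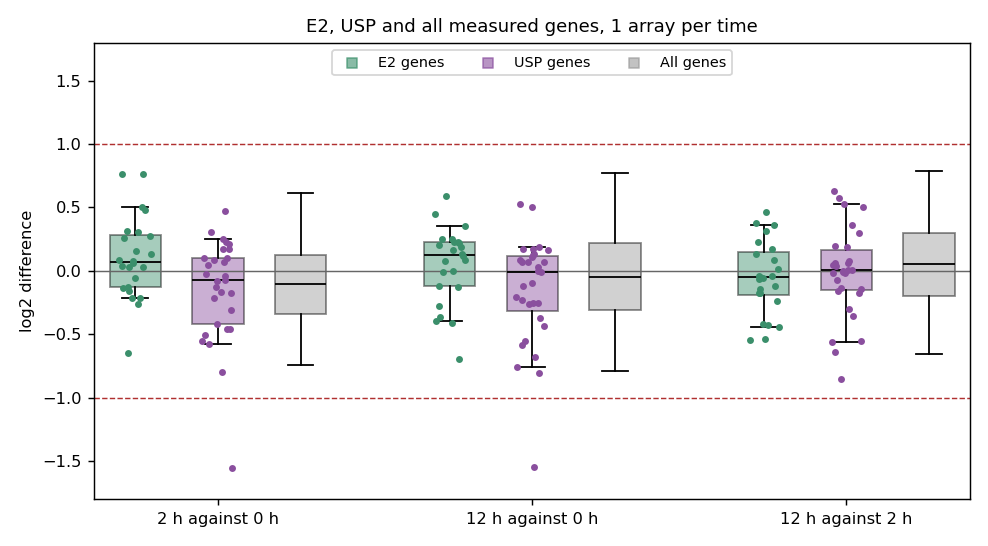
Log2 differences of E2 genes (green), USP genes (purple) and all measured genes (grey) for the 3 comparisons of arrays. Boxes show quartiles and medians, whiskers the 5th and 95th percentiles, points single E2 and USP genes, and dashed lines 2-fold, with Usp2 the only point beyond them.

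A fold of 1.5 gives the smaller differences. At 2 h it was reached by 2 higher E2 genes (Ube2f and Ube2d3) and by 3 lower genes (Ube2t, Usp21 and Usp2) of 53, where 5.6% of all genes were higher and 9.64% lower. At 12 h against 0 h it was reached by 1 higher gene, Ube2d3, and by 6 lower genes of 55, where 8.32% and 10.3% of all genes were. The 6 were Ube2t, Usp2, Usp20, Usp21, Usp25 and Usp8. Usp8, at 1.5003-fold, and Ube2d3, at 1.5049-fold by its reported probe set, lay at the cut-off itself. At 12 h against 2 h it was reached by 1 higher gene, Usp4, and 2 lower genes, Usp20 and Usp25, of 54, where the background was 10.2% and 6.45%. Most measured genes stayed within 1.5-fold: 7138 of 8422 at 2 h, 7018 of 8629 at 12 h, and 7060 of 8467 between the LPS arrays. A group of genes within 1.5-fold is therefore no sign of particular stability.

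Among the E2 genes, Ube2n and Ube2v1, whose products form the E2 for the chains of the TRAF6 pathway, had small positive differences. Each was read by 1 probe set. Ube2n, whose product is the catalytic subunit of that E2, had signals of 482, 582 and 617 at 0, 2 and 12 h, with log2 differences from 0 h of 0.27 and 0.36. Ube2v1, the partner used in NF-kB signalling, had 542, 575 and 631. Ube2v2, the partner used in DNA damage tolerance, had 291, 319 and 397, but its second probe set read 84.8, 67.9 and 63.4, so its 2 probe sets opposed each other. None of the 3 genes reached 1.5-fold, as most measured genes did not.

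The measured E2 genes in the role group drawn up as broad, besides Ube2d3, stayed within 1.5-fold in every comparison by their reported probe sets. Not every enzyme of this group need pair with many ligases. Ube2d1 had signals of 66.3, 92.7 and 78.8 at 0, 2 and 12 h, the highest value being that at 2 h. Ube2d2a had 759, 632 and 572 by its reported probe set, with log2 differences of -0.26 at 2 h and -0.41 at 12 h. Its 4 probe sets ranged from -0.26 to 0.45 at 2 h, so no direction can be given there. Ube2e3 had 356, 426 and 293, a log2 difference of -0.54 between 12 h and 2 h. Ube2e1, Ube2e2, Ube2h and Ube2w had log2 differences from 0 h between -0.16 and 0.16 by their reported probe sets. A second probe set for Ube2w was under the floor at 0 h and 12 h, and at least 1.33-fold higher at 2 h than at 0 h. Of the 8 measured genes in this group, 1 reached 1.5-fold at 2 h, namely Ube2d3. Over all genes, 5.6% were 1.5-fold higher and 9.64% lower at 2 h, so 1 of 8 is near the background.

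Enzymes of endoplasmic reticulum quality control and of proteasome-targeting chains included Ube2g1, Ube2g2, Ube2j1, Ube2j2, Ube2k and Ube2r2. None reached 1.5-fold in any comparison by its reported probe set, and in each comparison most measured genes did not. Ube2g2, the E2 that works with the ligases gp78 and HRD1, had signals of 258, 223 and 307 at 0, 2 and 12 h. Its 2 probe sets moved in parallel, with log2 differences between 12 h and 2 h of 0.46 and 0.61. Ube2j1, anchored in the reticulum membrane, had log2 differences at 12 h against 0 h of -0.37 by one probe set and 0.55 by the other. Ube2r2, a relative of Cdc34 that serves cullin ligases, had 101, 87.2 and 114.

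Cell cycle and repair E2 genes differed among themselves. Ube2s, which extends chains for the anaphase-promoting complex, had signals of 1270, 1800 and 1348 at 0, 2 and 12 h, a log2 difference of 0.50 at 2 h. Ube2a and Ube2b, the mouse RAD6 enzymes, had log2 differences at 2 h of 0.04 and 0.31, and a second probe set for Ube2b was 1.54-fold lower at 12 h than at 0 h. Ube2t, described above, had the lowest difference of this group at each LPS time. Ube2z, which charges the modifier FAT10 as well as ubiquitin, had 408, 417 and 311, and Ube2o, a large enzyme with E2 and E3 activity, had 61.6, 56.4 and 72.3.

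**Figure D4:**
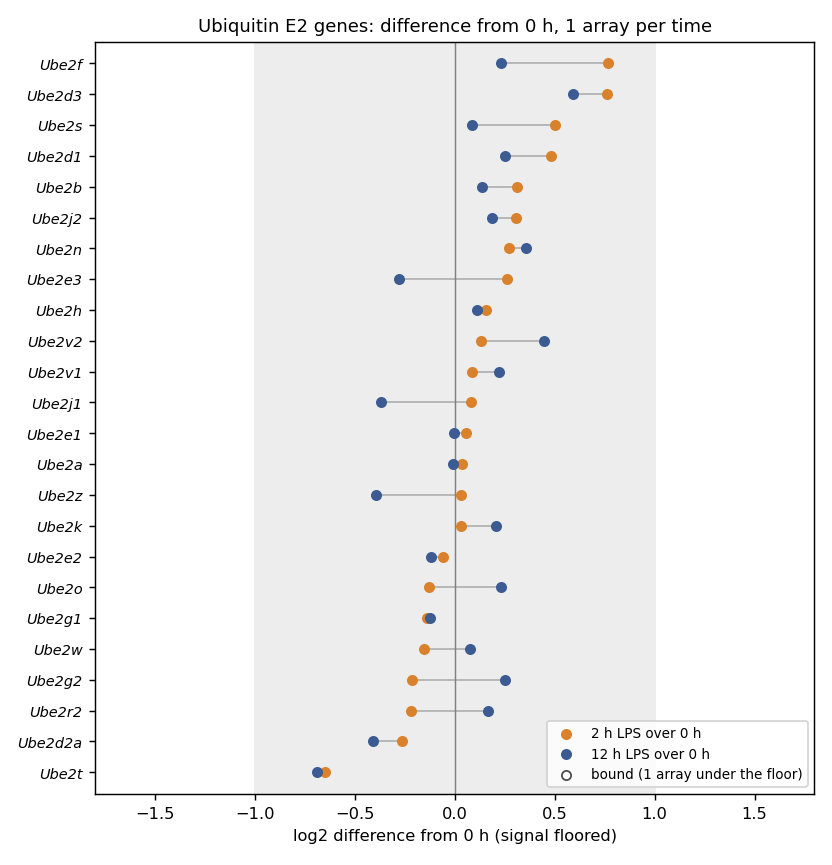
Log2 difference from 0 h of the 24 measured E2 genes, sorted by the 2 h value, with orange points for 2 h and blue points for 12 h of LPS. The shaded band spans differences under 2-fold in either direction and holds all 24 genes, from Ube2f at 0.76 to Ube2t at -0.65 for 2 h.

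Of 8 measured USP genes with roles in signalling, 4 were at least 1.5-fold lower at 12 h than at 0 h (Usp2, Usp20, Usp21 and Usp25), where 10.3% of all genes were, and none was 1.5-fold higher. The role groups were drawn up with earlier results of these data known, so this count is a description only. Usp20, whose product binds the von Hippel-Lindau protein, had signals of 86.4, 89.2 and 49.4 at 0, 2 and 12 h, or 1.75-fold lower at 12 h. With the floor at the 60th percentile its 12 h signal was under the floor, so the log2 difference became a bound of -0.03 in place of -0.81. Usp25, which acts on TRAF proteins in Toll-like and interleukin receptor signalling, had 196, 191 and 122, or 1.60-fold lower at 12 h. Both genes had nearly the same signal at 0 h and 2 h and the low value at 12 h. Usp4 went the other way, with 172, 157 and 243, or 1.54-fold higher at 12 h than at 2 h. Usp15, its close relative, had 333, 354 and 350, and Usp10 and Usp33 also stayed within a log2 difference of 0.17 of 0 h.

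Of the deubiquitinases that recycle free ubiquitin or sit on the proteasome, Usp14 and Usp5 were within 1.5-fold of 0 h by their reported probe sets, and Usp13 has only a bound. Usp14, which trims chains at the proteasome, had signals of 642, 890 and 693 at 0, 2 and 12 h, a log2 difference of 0.47 at 2 h. Its other 2 probe sets had differences of 0.08 and -0.08, so that increase rests on 1 probe set, and one of these was 1.57-fold lower at 12 h. Usp5, which disassembles unanchored chains, had 470, 405 and 407. Usp13, its relative, had 51.5 at 0 h and was under the floor at 2 and 12 h, at least 1.47-fold lower at each.

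Deubiquitinases of chromatin, replication and repair were within 1.5-fold of 0 h by their reported probe sets, as were most measured genes. Usp3, an enzyme for histones H2A and H2B, had signals of 218, 146 and 218 at 0, 2 and 12 h, 1.49-fold lower at 2 h. Its second probe set read 115, 90.5 and 116, so both had their lowest value at 2 h. Usp48 showed the same order by its reported probe set, with 285, 200 and 284, and all 3 of its probe sets were lower at 2 h than at 0 h, by 1.27 to 1.66-fold. Usp45 was lower at 2 h by all 3 probe sets, with log2 differences of -0.69 to -0.46, whereas at 12 h they ranged from -0.75 to 0.46. Between 12 h and 2 h the probe sets of Usp45 ranged from -0.24 to 1.15. The highest of these values came from a dimmer probe set, which read 66.9, 41.5 and 92.3 at 0, 2 and 12 h. It was 2.23-fold higher at 12 h than at 2 h. Usp1, which removes ubiquitin from FANCD2 and PCNA, had 771, 624 and 658, and its 3 probe sets were lower than at 0 h at each LPS time. Usp22, the deubiquitinase of the SAGA complex, had 43.4, 53.5 and 36.4, close to the floor. Usp7, Usp11 and Usp16 had log2 differences from 0 h between -0.44 and 0.17 by their reported probe sets. A second, dimmer probe set for Usp7 read 46.6, 74.6 and 61.2 at 0, 2 and 12 h, or 1.60-fold higher at 2 h, so the 2 probe sets of Usp7 had opposite signs.

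Of the USP genes for membrane traffic, Usp8, which acts on endosomal receptors, had signals of 314, 309 and 209 at 0, 2 and 12 h, a log2 difference of -0.59 at 12 h. Usp9x, a large enzyme with many substrates, had 212, 202 and 163 by its reported probe set. Its 6 probe sets above the floor at 12 h or 0 h had log2 differences from -0.77 to 0.74, with 2 higher and 4 lower, so its direction is uncertain too. Usp19, anchored in the endoplasmic reticulum, had 177, 198 and 199. Usp39, a splicing factor without protease activity, had 443, 512 and 464. The remaining measured USP genes, Usp12, Usp24, Usp34, Usp36, Usp47 and Usp49, had log2 differences from 0 h between -0.46 and 0.25 by their reported probe sets. Usp43 was above the floor at 12 h alone, at 50.3 and at least 1.44-fold higher than at 0 h, as was Usp17la, at 39.9 and at least 1.14-fold higher.

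Agreement between probe sets was limited at these sizes. At 2 h against 0 h, 24 E2 and USP genes had more than 1 probe set with a measured difference, and in 13 of them all had one sign. In the comparison of 12 h with 0 h this held for 8 of 23 genes, and between the LPS arrays for 14 of 24. One probe set at least 1.5-fold higher and another at least 1.5-fold lower occurred in 2 genes, Ube2d3 and Usp9x, both at 12 h against 0 h.

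In the other pathway genes examined, 2 were at least 2-fold from 0 h. Over all measured genes, 2.09% were 2-fold higher and 1.69% lower at 2 h, and 3.01% and 2.4% at 12 h. Of 8 E1 genes listed, 4 were measured, and Uba1 and Uba6, the E1 enzymes for ubiquitin, were not among them. Of the 4, Uba7, the E1 for ISG15, was 3.82-fold higher at 12 h than at 0 h. Its signals were 81.3, 81.5 and 311 at 0, 2 and 12 h. The other 3, Uba3, Sae1 and Nae1, were within 1.5-fold at both times. Among 14 measured deubiquitinases of other families, Tnfaip3, which encodes A20, was the only gene at least 2-fold higher at 2 h. It had signals of 60.2, 409 and 68.1. Psmd14, the deubiquitinase of the proteasome lid, had 1396, 2180 and 2101, or 1.56-fold higher at 2 h. The median of the 14 was -0.0073 at 2 h and 0.10 at 12 h. No member of the 4 measured ubiquitin-like modifier genes, the 4 USP partner genes or the 5 other E2 genes was 2-fold apart in any comparison. With so few genes and such low shares over all genes, this says little about these families. The ubiquitin genes themselves were not analysed here.

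The 3 genes left out by the rule differed more at 12 h than the members of their families, with log2 differences from 0 h of 2.43, 0.93 and -1.20. Usp18, the ISG15 protease, had signals of 219, 146 and 1181 at 0, 2 and 12 h. Ube2l6, the E2 for ISG15, had 47.0, 28.8 and 89.4, and Ube2c, an E2 of the anaphase-promoting complex, had 1206, 1041 and 526. They were set aside with earlier results of these data known, and the counts above do not include them.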

How the data were processed

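Total RNA from RAW264.7 cells at 0, 2 and 12 h of LPS was labelled from 5 µg by a modified Affymetrix procedure, per the labels' protocols. The deposited table holds a linear intensity for each of 22690 probe sets (64 controls). How the authors scanned and normalized the arrays, and the LPS dose, are not given here. The columns shared one trimmed mean (148.97 to 149.35 over non-control probe sets with 2% trimmed at each end), so a change in total mRNA would not be seen. Deposited medians were 56.3, 51.0 and 54.4 at 0, 2 and 12 h.

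From these values, single-gene probe sets (20393; another 691 named several genes and 1606 were not listed) were named from the platform annotation. Symbols were updated through a RefSeq table of GRCm38.p6, where 20364 matched. All E2 and USP symbols were the same before and after, and 7 probe sets that named such a gene with others were not used. Rescaling, floor, probe set choice and fold are as given above. No model was fitted. Log2 differences were taken for the genes of the whole table above the floor on at least 1 of the 2 arrays compared (8422 at 2 h against 0 h, 8629 at 12 h against 0 h and 8467 at 12 h against 2 h, of 12393), and the counting was tested on simulated data. Python 3.11.15, numpy 2.4.6, pandas 2.3.3 and matplotlib 3.10.9 were used.

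Members, gene lists and settings were chosen with earlier results of these data known. Named genes were every member at least 2-fold apart, the 4 largest increases and decreases per family and comparison, members whose probe sets opposed each other by 1.5-fold, and members of role groups. Alternatives were no rescaling, a common median, quantile normalization, a floor at the 20th or the 60th percentile, a pseudocount of 50 instead of a floor, the median over probe sets, suffixed probe sets left out, and folds of 1.5 and 3.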

Additional observations from a re-analysis of the deposited data

How the results depend on the processing

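Usp2 was at least 2-fold lower at 2 h and at 12 h under all 8 alternatives to the scaling, floor and probe set choice, with log2 differences of -1.56 to -1.16 at 2 h and -1.55 to -1.16 at 12 h. At 3-fold, 0 members were lower at either time. With the floor at the 20th percentile, 2 of 61 members were lower at 2 h (Usp2 and Usp9y). At 12 h the same 2 were lower and 1 (Usp17la) was higher, and 1 (Usp53) was higher at 12 h against 2 h. Over all genes, that floor gave 350 higher and 510 lower of 10800 at 2 h. It gave 551 higher and 493 lower of 10956 at 12 h, and 607 and 344 of 10869 at 12 h against 2 h. Usp9y and Usp53 were under the main floor on every array, and Usp17la was above it at 12 h alone. At 1.5-fold with the main floor, 2 members were higher and 3 lower at 2 h, and 1 higher and 6 lower at 12 h. At 12 h against 2 h, 1 member was higher and 2 were lower. Without suffixed probe sets, which leaves 51 of 63 members, the E2 median at 12 h relative to all genes was 0.051 in place of 0.17, and the USP median -0.11 in place of 0.04. With quantile normalization, the E2 median at 2 h exceeded the USP median by 0.051 in place of 0.14, and that of all genes by 0.083 in place of 0.17. Among single genes, the log2 difference of Ube2d3 ranged from 0.17 to 0.91 at 2 h and from -0.67 to 0.64 at 12 h, that of Usp20 from -0.81 to -0.03, and that of Ube2f at 2 h from 0.69 to 0.91. No paired analysis was possible because each time had 1 array. No detection calls were used, so differences of probe sets near the floor are the least certain.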
